A study of Saccharomyces cerevisiae with 26 samples.

Results

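The genes described here encode the proteins of the large (60S) subunit of the cytosolic ribosome of Saccharomyces cerevisiae. They were taken as every gene whose symbol is RPL followed by a number and, where there is one, the paralog letter A or B, together with RPP0, RPP1A, RPP1B, RPP2A and RPP2B of the ribosomal stalk, provided that a probe set of the array named that gene alone. The rule gave 47 genes of the 5656 genes that have a probe set of their own. RefSeq lists 81 genes with such symbols, of which 32 were represented only on the 38 probe sets shared by a paralog pair, which are described separately at the end. Of the 47 genes, 10 have no paralog (RPL3, RPL5, RPL10, RPL25, RPL28, RPL29, RPL30, RPL32, RPL38 and RPL39), 32 form 16 paralog pairs with both copies measured, and 5 are stalk genes, which add the pairs RPP1A/RPP1B and RPP2A/RPP2B to give 18 pairs. All 47 were tested, and their lowest signal on any array was 72.9, well above the floor of 12 used below.

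Cytosolic ribosomal protein genes are among the most strongly transcribed genes of growing yeast, and most exist as duplicated copies whose products are identical or nearly so. Their promoters are bound by Rap1, Fhl1 and Ifh1, and their transcription follows nutrient supply through the TOR and protein kinase A pathways. Sfp1 is a zinc-finger activator that acts downstream of both pathways on ribosomal protein genes and on genes of ribosome assembly. Within the large subunit, Rpl3 lies close to the peptidyl transferase centre, Rpl5 carries the 5S rRNA with Rpl11, Rpl10 joins the particle late in the cytoplasm, and Rpl25 and Rpl39 line the exit of the peptide tunnel. Rpp0 anchors the acidic P1 and P2 proteins of the stalk, which recruits the translation GTPases.

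The reference strain was CEN.PK113-7D. Both strains are MATa and carry MAL2-8c and SUC2, and the deletion strain carries in addition sfp1Δ::KlLEU2 and the allele leu2-3,112, so that it also differs from the reference at LEU2 and the effects of the 2 loci cannot be told apart. Both are prototrophic haploids. Each was grown under glucose limitation with aeration in chemostats (30 °C, pH 5.0, stirring at 800 rpm, dilution at 0.10 per h). Nitrogen was then passed through in place of air, the medium pump was stopped, and glucose was injected to 200 mM. Samples were quenched in liquid nitrogen at steady state, from 3 independent cultures per strain, and at 5, 10, 30, 60 and 120 min after the pulse, from 2 independent cultures per strain, which gives 12 groups and 26 arrays. Effects of the loss of oxygen, of the stopped feed and of the glucose cannot be told apart. Values are linear signal intensities that had been scaled to one trimmed mean per array. They are relative to all RNA on the array, so that a change per cell and a change of the share of total RNA cannot be told apart.

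The deletion label was borne out by SFP1 itself, at 0.2 to 2.9 on the 13 deletion arrays and at 97.2 to 205.1 on the 13 reference arrays. The a-cell genes MFA1, MFA2, STE2 and BAR1 were detected on all 26 arrays, with a lowest signal of 138.4. The α-factor gene MF(ALPHA)1, which haploid a cells normally do not express, read 21.6 to 99.1 in the reference and 126.6 to 796.7 in the deletion strain. Its part in the results was not tested. The median signal per array ran from 22.7 to 49.0. Replicate arrays correlated at 0.970 to 0.993 across genes in 10 groups, but only at 0.805 and 0.796 in the deletion groups labelled 10 and 30 min, where the higher values lay across the labels: 0.978 between the first 10 min and the second 30 min array, and 0.922 between the remaining ones. These 4 arrays were therefore left out of the fit, except in comparisons of the 10 and 30 min deletion arrays combined, and counts with them are given beside the results they change. The ratio of the actin 5′ to 3′ probe sets, a sign of RNA integrity, was 0.697 to 0.923 in the reference, but 0.147 on deletion steady-state replicate 1, 0.247 on deletion 60 min replicate 1 and 0.00322 on deletion 30 min replicate 1; on deletion 10 min replicate 2 it was 0.652 with a middle to 3′ ratio of 0.207. Some results that rest on those arrays are given with and without them. Others are given with them only, among them the count of members called in the deletion strain at 60 min. Deletion 60 min replicate 2 was kept throughout, although its 5′ to 3′ ratio of 0.598 and middle to 3′ ratio of 0.579 lay below every reference array. The 60 min results without low ratios thus still rest on an array of lowered ratios.

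In the reference strain, none of the large subunit genes passed the test 5 min after the pulse, 18 of 47 did at 10 min, and by 30 min, when 46 did, their median signal had about doubled on the deposited scale. At 5 min 0 of 47 genes were called by limma (adjusted p under 0.05, Benjamini-Hochberg over all 5369 genes tested; 5 had an unadjusted p under 0.05), with a median log2 change of 0.02, while 2.98% of all genes were called higher and 6.67% lower. Leaving out single arrays gave at most 1 call. Both 5 min arrays lay above all steady-state arrays for 10 members (13.1% of all genes) and below them for 3 (27.6%). At 10 min 18 genes were called higher and 0 lower, with a median of 0.28, against 15.2% and 31.6% of all genes. Both arrays lay above all steady-state arrays for 31 members (21.8%) and below them for 0 (44.5%). The count fell to 8 without either of the 10 min reference arrays and to 1 when all 26 arrays shared the estimate of the spread. At 30 min 46 of 47 were called higher, the median change was 1.05 on the log2 scale, or 2.07-fold, and 22.6% of all genes were called higher and 53.0% lower. The count was 46 again at 60 min and at 120 min, with medians of 1.05 and 0.88, where 22.1% and 19.0% of all genes were called higher and 43.8% and 37.4% lower.

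**Figure D1:**
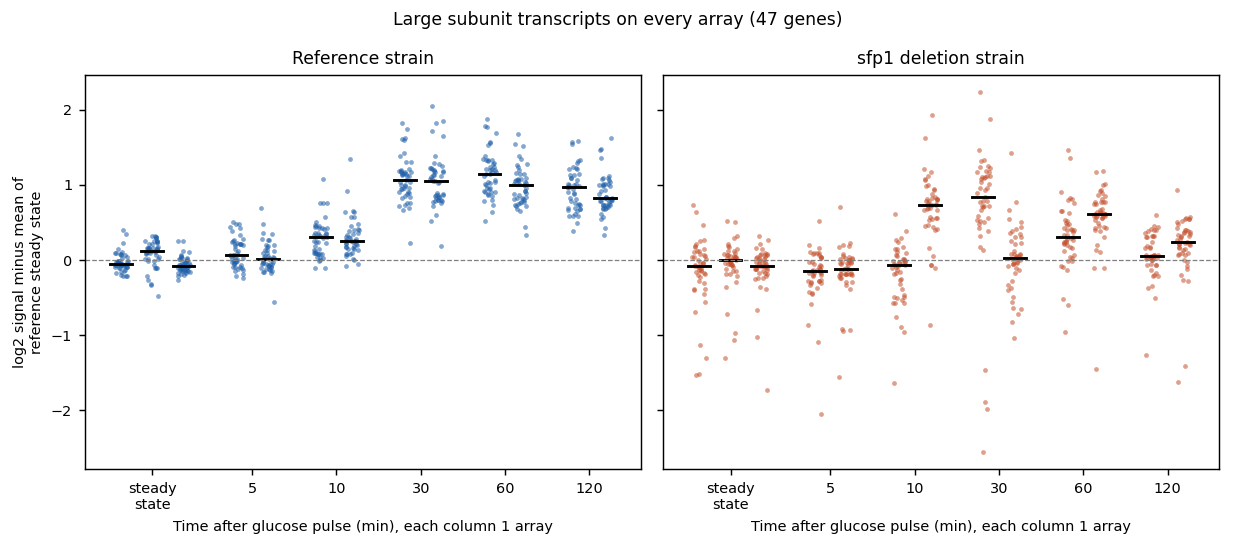
Log2 signal of each of the 47 large subunit genes (points) on each array, minus that gene's mean over the 3 reference steady-state arrays, with the reference strain and the deletion strain in separate panels and the median of each array as a bar. On the deposited scale the reference medians climb to 1.07 and 1.05 on the 30 min arrays, whereas the deletion medians at 120 min are 0.05 and 0.24.

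The plot of levels by array shows how closely the replicates ran together in the reference. The medians of the 47 genes relative to the reference steady-state mean were 0.06 and 0.01 on the 5 min arrays, 0.30 and 0.25 at 10 min, 1.07 and 1.05 at 30 min, 1.15 and 1.00 at 60 min, and 0.97 and 0.82 at 120 min. The group mean was highest at 30 min for 23 genes, at 60 min for 23 and at 5 min for RPL15B. All 47 means were lower at 120 min than at 60 min, although both 120 min arrays lay below both 60 min arrays for only 22 of them. For this step the share of all genes was not computed, so a fall particular to the members was not tested. At 30 min both arrays lay above all steady-state arrays for 46 genes (25.0% of all genes did so), and at 60 and 120 min for 47 (27.2% and 26.3%). None lay below, as 57.3%, 50.5% and 46.1% of all genes did at 30, 60 and 120 min.

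The size of the rise depends on how the arrays are scaled. On the deposited scale the median of all genes was at -0.53 at 30 min, and the members' median lay 1.58 above it. Under quantile normalization, which holds the distribution of signals equal, the median of all genes was at -0.00 and that of the members at 0.44. There 29 members were called higher, as were 1977 of the 5369 genes tested, while 17 calls were lost and RPL10 turned to -0.12. With the arrays set to a common median, the members' median was 2.00 against 0.25 for all genes, a gap of 1.75. All 47 were then called higher, as were 2422 of the genes tested. The share of called genes that were higher was 29.9% as deposited, 50.7% under quantile normalization and 59.5% with a common median. The members lay above the median of all genes under all 3 scalings. At 60 and 120 min 33 and 30 members were called higher under quantile normalization, as were 1992 and 1771 of the genes tested.

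RPL13A (YDL082W) and RPL7B had the largest values at 30 min, and their order depended on the setting. Its signals were 949.1, 1041.6 and 917.3 at steady state and 3427.9 and 3499.8 at 30 min. Both later arrays were thus far above the 3 earlier ones, and the group means were 969.3 ± 64.6 (SD, n = 3) and 3464 ± 50.8 (SD, n = 2). The change was 1.84 on the log2 scale (SE 0.094, 3.58-fold, adjusted p = 1.03e-11, limma). RPL13A was already up by 0.70 at 10 min (adjusted p = 1.23e-05) and remained up by 1.52 at 120 min (adjusted p = 2.63e-10).

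Without 30 min replicate 1 RPL7B was at 2.05 and RPL13A at 1.85, and under quantile normalization RPL22B was at 1.61, RPL13A at 1.36 and RPL7B at 1.31. RPL7B (YPL198W) and RPL22B (YFL034C-A) had different values later in the time course. RPL7B read 1088.8, 950.4 and 1038.6 at steady state, 3105.8 and 4245.0 at 30 min, and 2978.7 and 3145.1 at 120 min. It was up by 1.83 at 30 min (SE 0.191, adjusted p = 1.35e-07) and by 1.58 at 120 min (adjusted p = 1.85e-06), with RPL36A and RPL13A within 1 SE of it. RPL22B read 333.7, 306.5 and 270.1 at steady state, 926.3 and 1071.3 at 30 min, and 460.3 and 515.4 at 120 min. It was up by 1.72 at 30 min (SE 0.258, adjusted p = 1.05e-05) but by only 0.69 at 120 min (adjusted p = 0.0314), so most of its rise had gone although the groups still did not overlap. At 10 min RPL22B had the largest change of the members, 1.21 (adjusted p = 0.000971).

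RPL36A (YMR194W) was among the 3 largest rises at 120 min. Its signals were 1992.9, 2873.6 and 2148.2 at steady state and 6918.1 and 6437.5 at 120 min, a log2 change of 1.53 (SE 0.143, adjusted p = 7.23e-08). RPL15B (YMR121C) was the one member without a call at 30, 60 or 120 min. It read 382.9, 543.1 and 419.5 at steady state, 519.3 and 506.4 at 30 min, and 580.3 and 560.8 at 120 min. Its 30 min arrays fell within the steady-state range, and its change was 0.21 (SE 0.212, adjusted p = 0.381).

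**Figure D2:**
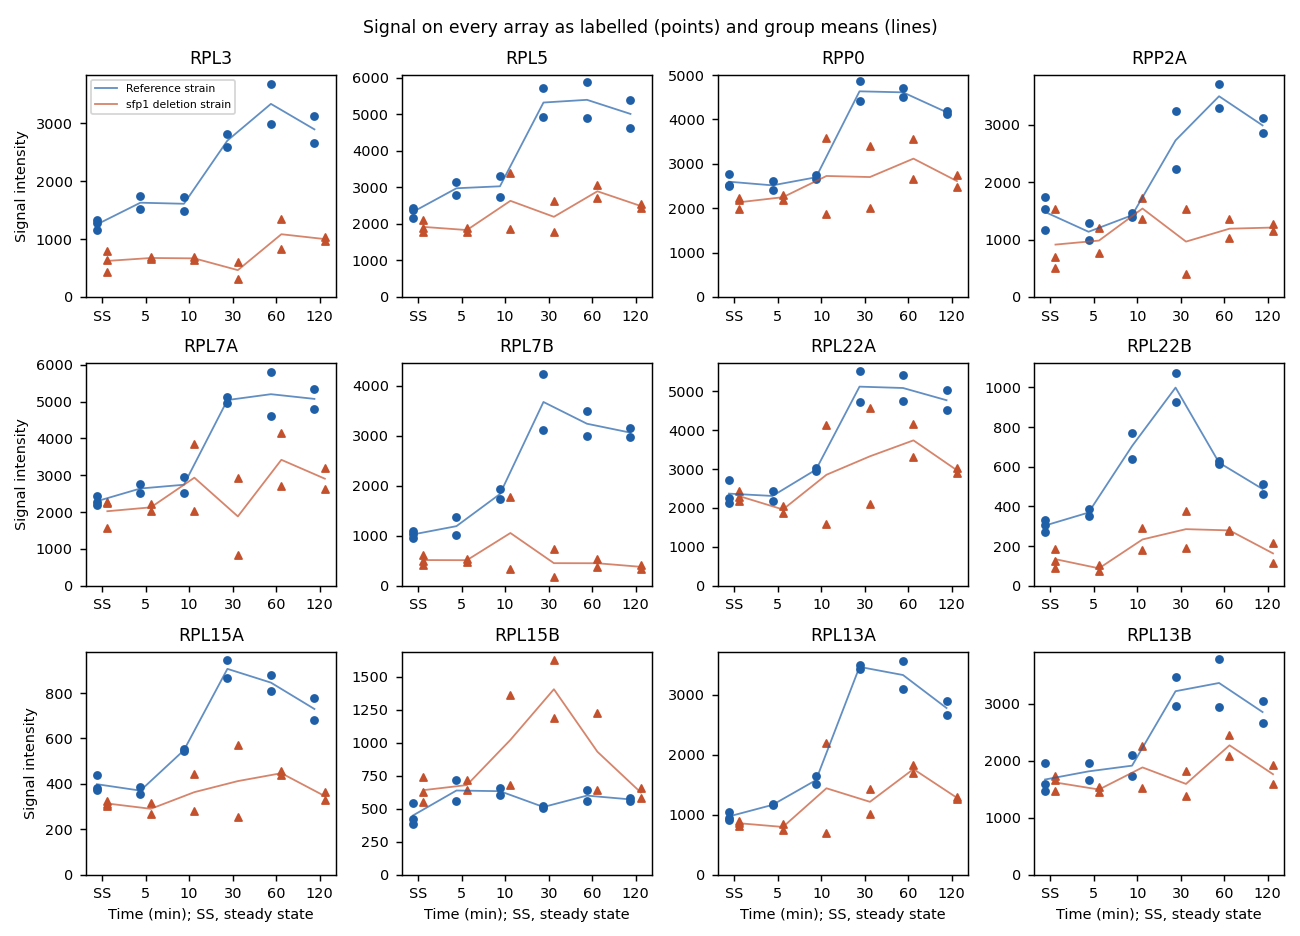
Signal (arbitrary units, linear axis) of 12 named genes on each array by time after the pulse, with lines through the group means of the reference and the deletion strain. RPL13A in the reference climbs from a mean of 969.3 at steady state to 3464 at 30 min, and RPL7B in the deletion strain stays at 331.7 and 424.8 at 120 min.

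All 10 single-copy genes were called higher at 30 min, with a median of 0.96, on the deposited scale. RPL3 (YOR063W) rose from 1321.5, 1283.9 and 1149.8 at steady state to 2818.7 and 2581.0 at 30 min and 3671.7 and 2994.0 at 60 min. Its change was 1.11 at 30 min (adjusted p = 0.000122) and 1.41 at 60 min (adjusted p = 1.26e-05), the largest of the single-copy genes at 60 min. RPL5 (YPL131W) rose from 2382.9, 2157.1 and 2437.7 to 5724.7 and 4908.7 at 30 min, by 1.19 (SE 0.121, adjusted p = 9.44e-08). RPL10 (YLR075W), the late-joining protein, had the smallest called change, 0.62 (SE 0.146, adjusted p = 0.000973), from 2706.8, 3849.2 and 2852.5 to 5082.2 and 4451.9; it is the member whose sign turned under quantile normalization.

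The remaining 7 single-copy genes had changes from 0.86 to 1.10 at 30 min. RPL25 rose from 1818.4, 2236.0 and 1616.3 to 3716.8 and 3409.7, RPL28, in which mutations give resistance to cycloheximide, from 1638.4, 2058.7 and 1542.3 to 3361.4 and 3011.8, and RPL32 from 1501.4, 1610.2 and 1325.9 to 3311.7 and 3005.2. Their changes at 30 min were 0.93, 0.88 and 1.10, and the groups did not overlap for any of the 3. RPL30, whose protein represses the splicing of its own transcript, went from 1618.4, 1832.2 and 1474.5 to 3256.9 and 2700.0, by 0.86 (adjusted p = 0.00696, and 0.0721 without 30 min replicate 1). RPL39 went from 1152.8, 1488.2 and 1372.2 to 2887.1 and 2444.9, by 1.00 (adjusted p = 8.14e-06). Both were above their steady-state arrays at 30 min. RPL29 went from 2117.9, 2690.4 and 1799.5 to 4168.6 and 3842.6, by 0.88 (adjusted p = 0.000182). RPL38 went from 1219.7, 1110.7 and 1173.1 to 1978.0 and 2869.8, by 1.03 (adjusted p = 1.3e-06), with unequal 30 min arrays that both lay above steady state. RPL25, RPL28, RPL29 and RPL30 were among the 17 members whose calls were lost under quantile normalization, while RPL32, RPL38 and RPL39 kept theirs.

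The 5 stalk genes were all called higher at 30 min, with a median of 0.87; under quantile normalization RPP1A alone of them was called. RPP0 (YLR340W) read 2507.1, 2765.5 and 2517.3 at steady state and 4862.3 and 4404.2 at 30 min, a change of 0.83 (SE 0.111, adjusted p = 2.46e-06). RPP1A went from 1387.9, 1566.3 and 1423.8 to 3292.2 and 3067.3, by 1.12 (adjusted p = 1.04e-06). RPP2A (YOL039W) was the least even between arrays, with 1537.8, 1168.3 and 1737.9 at steady state against 3236.3 and 2223.1 at 30 min. Its change was 0.88 with an SE of 0.330 (adjusted p = 0.0235), and the call was lost in 5 of 32 alternative settings. RPP1B went from 2209.6, 2523.8 and 2336.7 to 3720.8 and 4208.1, by 0.75 (adjusted p = 6.03e-05), and RPP2B from 2341.3, 3122.2 and 2428.4 to 5061.5 and 4503.9, by 0.87 (adjusted p = 1.12e-05).

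At steady state 6 large subunit genes were called lower in the deletion strain than in the reference (RPL7B, RPL3, RPL22B, RPL15A, RPP0 and RPP2A), 0 were called higher, and 41 were not called. The median difference, deletion minus reference, was -0.06 on the log2 scale against 0.13 over all genes, of which 18.4% were called higher and 8.14% lower. Under quantile normalization the members' median turned to 0.01, with 4 called higher and 7 lower. Of the 5369 genes tested, 915 were then called higher and 611 lower. All deletion arrays lay below all reference arrays for 10 members (12.2% of all genes did so) and above them for 3 (30.0%).

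RPL7B, RPL3 and RPL22B had the largest called differences, each more than 2-fold. RPL7B read 414.5, 622.4 and 504.0 in the deletion strain, below all the reference arrays given above, with means of 513.6 ± 104 and 1026 ± 70.1 (SD, n = 3 each). The difference was -1.02 (SE 0.171, adjusted p = 0.00065, limma), and the call was lost when all 26 arrays were fitted (adjusted p = 0.225). RPL3 read 436.2, 639.3 and 790.4 in the deletion strain, a mean of 622.0 ± 178 against 1252 ± 90.3. Its difference was -1.05 (SE 0.187, adjusted p = 0.000983). RPL22B read 187.2, 123.0 and 91.1, a mean of 133.8 ± 49.0 against 303.4 ± 31.9. Its difference was -1.24 (SE 0.231, adjusted p = 0.00135), and the calls of RPL3 and RPL22B were kept in all 32 alternative settings.

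Deletion replicate 1 at steady state, the array with the actin ratio of 0.147, had the lowest signal of the 3 for RPL7B and RPL3 and the highest for RPL22B. Without it and deletion 60 min replicate 1, a choice made after the data were seen, the differences were -0.87 for RPL7B (adjusted p = 0.00384), -0.81 for RPL3 (adjusted p = 0.00103) and -1.51 for RPL22B (adjusted p = 0.000911). The remaining 3 calls were smaller or less stable. RPL15A (YLR029C) read 326.5, 309.4 and 304.0 in the deletion strain and 382.2, 441.1 and 371.8 in the reference, a difference of -0.34 (SE 0.097, adjusted p = 0.0167) that was lost in 5 of 32 settings. RPP0 read 1977.4, 2229.2 and 2195.3, a difference of -0.28 (SE 0.099, adjusted p = 0.0439) that was lost in 21. RPP2A read 504.9, 697.1 and 1536.5, so that 1 deletion array lay inside the reference range; its difference of -0.84 (SE 0.295, adjusted p = 0.0441) was lost in 20 settings and was -0.50 (adjusted p = 0.246) without the arrays of low actin ratios.

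Of the members not called at steady state, RPL15B was nearest to a call in the upward direction. It read 739.4, 629.3 and 553.5 in the deletion strain, above all reference arrays, a difference of 0.52 (SE 0.189, adjusted p = 0.0517). RPL5 read 1765.2, 1889.3 and 2093.4, below all reference arrays, a difference of -0.28 (adjusted p = 0.0639). RPL30 read 746.7 on replicate 1 against 1677.9 and 1553.1 on the others, and the latter lay inside the reference range (difference -0.39, adjusted p = 0.23). RPL10 (2378.7, 3113.6 and 2846.7), RPL22A (2287.7, 2439.7 and 2179.8) and RPL25 (1735.5, 1809.0 and 1641.0) overlapped with the reference, as did RPL32 (1388.3, 1425.0 and 1268.7) and RPL39 (1155.2, 1199.5 and 1310.9). The deletion arrays of RPL28 (1587.1, 1524.8 and 1543.6) spanned a narrower range than those of the reference and overlapped with them. In the stalk, the deletion arrays of RPP1B (2835.9, 2732.6 and 2829.8) lay above the reference without a call (0.25, adjusted p = 0.125), those of RPP1A (1366.1, 1413.1 and 1334.3) overlapped with it, and those of RPP2B (2723.2, 2766.8 and 2766.3) lay inside the reference range.

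In the deletion strain the large subunit genes had the most calls at 60 min, and their median changes at 5, 60 and 120 min lay below those of the reference. At 5 min 0 members were called in either direction (2 had an unadjusted p under 0.05), with a median of -0.07, where 1.83% of all genes were called higher and 4.95% lower. Both 5 min arrays lay below all steady-state arrays for 13 members (32.4% of all genes) and above them for 1 (9.24%). At 60 min 40 members were called higher and 0 lower, with a median of 0.53, against 27.0% and 31.3% of all genes. Both 60 min arrays lay above all steady-state arrays for 41 members (30.8%) and below them for 0 (34.5%). At 120 min 12 were called higher, or 25.5% against 19.9% of all genes, which is not far from the background. At that time 0 were called lower, against 22.3%, and the median was 0.20. Both 120 min arrays lay above for 25 members (33.2%) and below for 0 (31.1%). Under quantile normalization 1918 of the 5369 genes tested were called higher at 60 min, the background for that member count below. The count at 60 min was 23 without deletion 60 min replicate 2, 21 under quantile normalization, where 3 of the called members changed sign, and 15 with all 26 arrays. That at 120 min was 3 without deletion 120 min replicate 2 and 0 with all 26 arrays.

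The 2 deletion arrays at 60 min were not alike. The members' median relative to the reference steady state was 0.31 on replicate 1 and 0.62 on replicate 2, and 41 of the 47 genes read lower on replicate 1, as did 24.0% of all genes. Replicate 1 also had the actin ratio of 0.247 and carried an array code in the labels with another prefix than 23 of the 26 arrays, shared only with deletion 10 min replicate 2 and 30 min replicate 2; the part of either in the difference was not tested. At 120 min the medians were 0.05 and 0.24. From 60 to 120 min the mean fell for 46 members, and both later arrays lay below both earlier ones for 30. The share of all genes that did so was not computed, so a fall particular to the members was not tested.

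The members with the largest called changes in the deletion strain were partly those of the reference. RPL27A rose by 1.17 at 60 min (adjusted p = 1.31e-06), from 888.6, 1161.4 and 946.1 at steady state to 2130.1 and 2322.0. RPL22B rose by 1.12 (adjusted p = 0.00126), to 276.5 and 281.6, and thus to a level below that of 2 of the 3 reference steady-state arrays. RPL13A rose by 1.04 (adjusted p = 4.34e-08), from 859.4, 893.3 and 812.8 to 1691.2 and 1826.9. At 120 min RPL3 had the largest called change, 0.72 (SE 0.209, adjusted p = 0.0101), and read 965.9 and 1031.5, still below all 3 steady-state arrays of the reference. RPL7B was not called, with changes of -0.19 at 60 min (adjusted p = 0.408) and -0.43 at 120 min (adjusted p = 0.0787), and it read 526.1 and 373.6, then 424.8 and 331.7.

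For the deletion arrays labelled 10 and 30 min the main comparisons use only the mean of the 4, which a swap of arrays between these labels would not alter. Fits that leave out some of the 4 depend on the labels, and a swap would alter what they compare. Their counts here and below are given without the share of all genes called and are not read as results about the members. Combined, 15 members were called higher and 0 lower against steady state, with a median of 0.43, where 9.24% of all genes were called higher and 31.8% lower. The 4 arrays lay above all steady-state arrays for 7 members (7.28%) and below them for 0 (27.2%). The members' medians on the 4 arrays, relative to the reference steady state, were -0.07 and 0.74 on those labelled 10 min and 0.84 and 0.03 on those labelled 30 min. Of the 47 members, 46 read lower on 10 min replicate 1 than on 10 min replicate 2, and 43 lower on 30 min replicate 2 than on 30 min replicate 1. The 2 high arrays are those with middle to 3′ actin ratios of 0.207 and 0.176, and the part of RNA integrity in their level was not tested; without the low-ratio arrays 9 members were called. Leaving out single arrays gave 34 calls without 10 min replicate 1 and 33 without 30 min replicate 2, but 4 without 10 min replicate 2, 7 without 30 min replicate 1, and 5, 8 and 7 without steady-state replicates 1, 2 and 3. The interaction with strain at these times gave 0 calls by limma (5 members at an unadjusted p under 0.05), with a median of -0.22 and 6.05% of all genes called higher and 5.07% lower; it gave 36 without the low-ratio arrays, and 12, 9, 3 and 1 without 10 min replicate 2, 30 min replicate 1, 30 min replicate 2 and deletion steady-state replicate 1.

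The difference between the strains in their response was tested as an interaction. At 5 min 0 members were called (5 had an unadjusted p under 0.05), with 0.205% of all genes called higher and 0.317% lower. At 60 min 25 members had a called smaller rise in the deletion strain and 0 a larger one, with a median interaction of -0.50 against 0.26 over all genes, of which 18.1% were called higher and 5.27% lower. At 120 min 33 were called smaller and 0 larger, with a median of -0.66 against 0.24, and 15.2% and 4.34% of all genes. The rise was smaller in the deletion strain for 44 members at 60 min and for all 47 at 120 min, on the deposited scale. Under quantile normalization, where the median of all genes was 0.00 and -0.03, the members' medians were -0.18 and -0.28. There 5 and 11 members were called lower, beside 382 and 368 of the 5369 genes tested. With a common median the members' medians were -0.91 and -1.11, and 38 and 42 were called lower, beside 793 genes at each time. With all 26 arrays, whose 4 doubtful ones widen the estimate of the spread, 0 were called at either time. Leaving out 1 array gave 7 calls at 60 min without reference replicate 1 and 12 without deletion replicate 1, and 18 and 19 at 120 min without reference replicate 1 and deletion replicate 1. Without the arrays of low actin ratios the counts were 8 and 38.

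**Figure D3:**
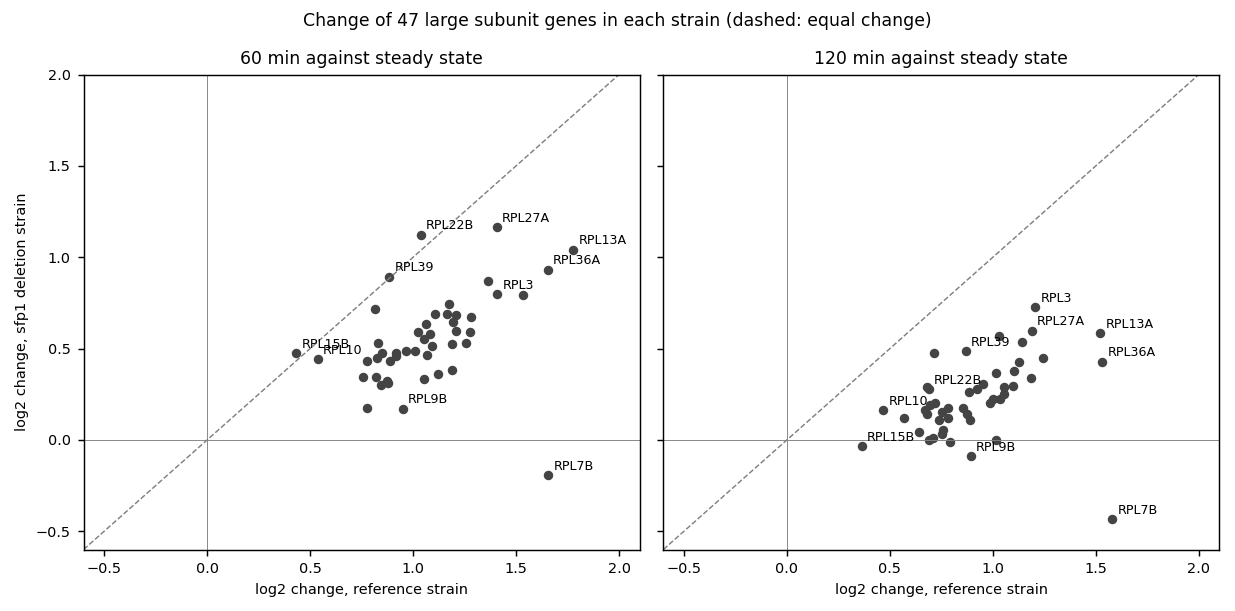
Log2 change from each strain's own steady state, reference on the horizontal and deletion on the vertical axis, 1 point per large subunit gene, at 60 and at 120 min; the dashed line marks equal change. At 120 min all 47 points lie below the line on the deposited scale, and RPL7B lies lowest, at -0.43 in the deletion strain.

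Across the 47 genes, the changes of the reference and of the deletion strain, which share no arrays but do share probe sets, had a Pearson correlation of 0.39 at 60 min and 0.36 at 120 min (Spearman 0.54 at both). Without RPL7B the Pearson values over 46 genes were 0.63 and 0.66. These are descriptions across genes, which are not independent replicates.

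More large subunit genes were called between the strains after the pulse than before it. At 60 min 38 members were called lower and 1 higher in the deletion strain, with a median difference of -0.53 against 0.39 over all genes, of which 10.7% were called lower and 42.6% higher. At 120 min 45 were called lower and 0 higher, with a median of -0.70 against 0.39, where 7.86% and 40.0% of all genes were called. The deletion arrays lay below the reference arrays for 43 members at 60 min (16.0% of all genes) and 46 at 120 min (15.5%), and above them for 1 at each time (57.3% and 65.3%). At 120 min the deletion mean of 42 members was above its own steady state and below the reference at 120 min. Under quantile normalization 11 members were called lower at 60 min and 18 at 120 min, with medians of -0.16 and -0.27. Of the 5369 genes tested, 851 and 651 were then called lower, and 4 of the members called at 120 min changed sign. With a common median 46 members were called lower at each time, beside 1256 and 1161 of the genes tested. The count at 60 min was 21 without reference 60 min replicate 1, 20 without deletion 60 min replicate 1 and 11 with all 26 arrays, and that at 120 min was 19 with all 26.

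**Figure D4:**
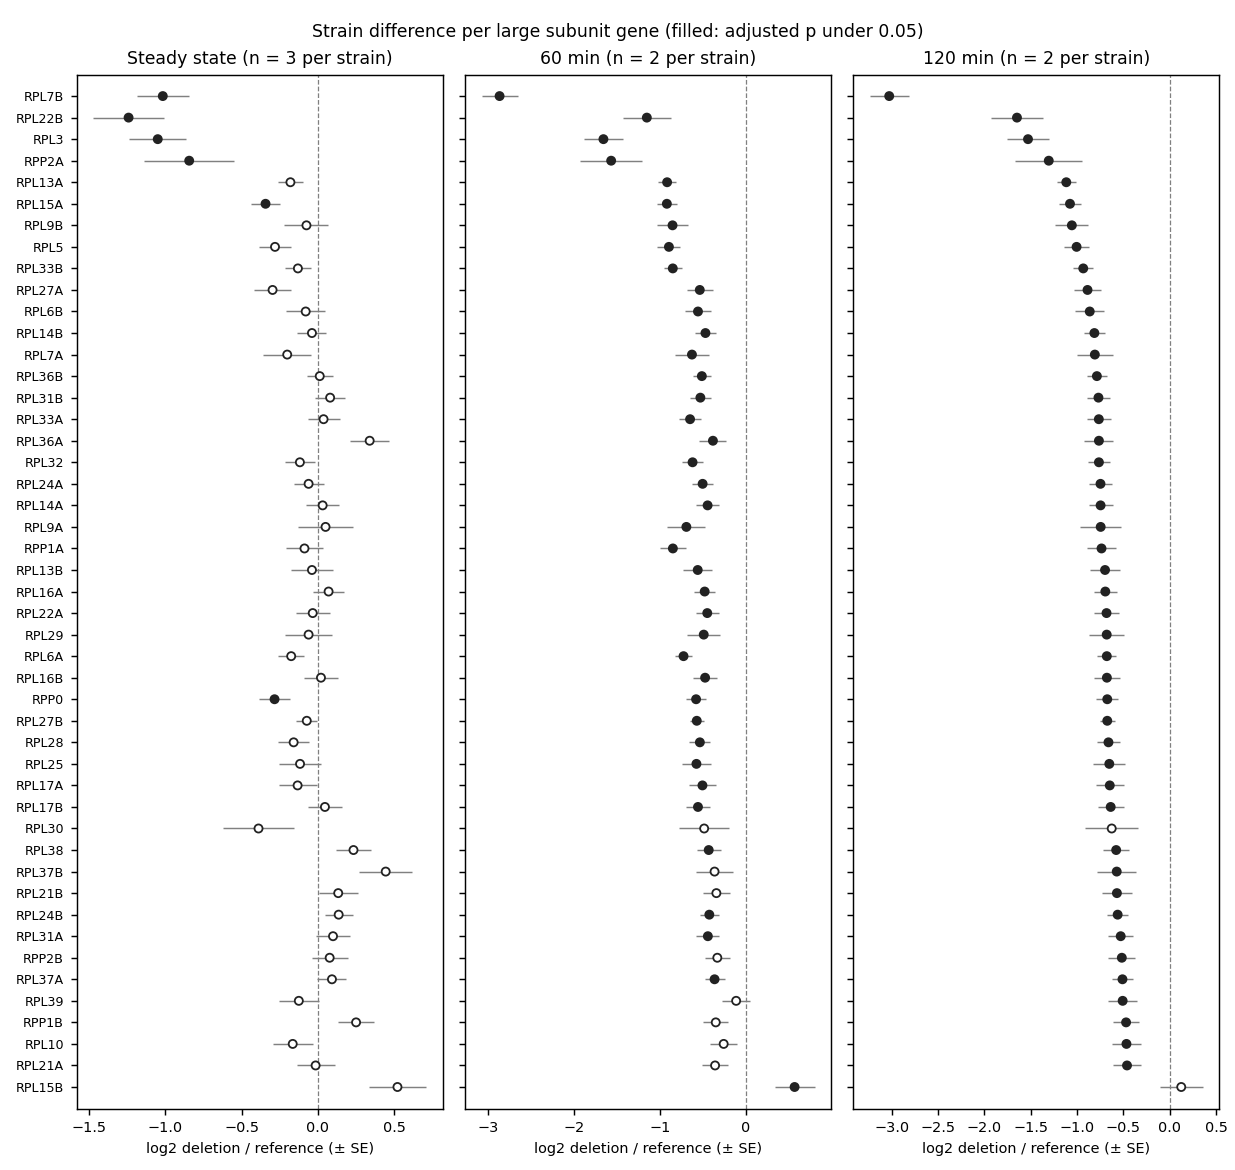
Log2 difference, deletion minus reference, with its standard error for each large subunit gene at steady state, 60 min and 120 min; filled points have an adjusted p under 0.05. RPL7B, RPL3, RPL22B and RPP2A lie lowest at each time, and at 120 min 45 genes are filled and lower on the deposited scale.

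RPL7B had the largest difference of the members at both times. At 120 min it read 2978.7 and 3145.1 in the reference and 424.8 and 331.7 in the deletion strain. The means were 3062 ± 118 and 378.2 ± 65.8 (SD, n = 2 each), a difference of -3.03 (SE 0.210, adjusted p = 1.35e-08); at 60 min it was -2.87 (adjusted p = 2.55e-08). Its interaction was -1.85 at 60 min (SE 0.271, adjusted p = 0.000137) and -2.01 at 120 min (SE 0.271, adjusted p = 7.32e-05), the most negative of all members at each time. Both calls were lost with all 26 arrays (adjusted p = 0.189 and 0.209), and without the arrays of low actin ratios the values were -2.24 and -2.16. A second probe set of RPL7B gave a strain difference of -0.86 at steady state and -2.53 at 120 min, a change of 1.74 in the reference at 30 min, and one of -0.50 in the deletion strain at 120 min.

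RPL36A, RPL37B and RPL9B had the next most negative called interactions. RPL36A read 6918.1 and 6437.5 at 120 min in the reference and 3507.3 and 4398.8 in the deletion strain, against 3196.7, 2894.0 and 2688.4 at the latter's steady state. Its interaction was -1.10 (SE 0.203, adjusted p = 0.00109). RPL37B (YDR500C) read 3941.0 and 3918.1 in the reference at 120 min, up from 2286.7, 1392.2 and 2312.6, and 2437.8 and 2860.7 in the deletion strain, against 3031.2, 2801.5 and 2182.7. Its interaction was -1.02 at 120 min (SE 0.274, adjusted p = 0.015) and -0.81 at 60 min (adjusted p = 0.0423), the former lost in 6 and the latter in 23 of 32 settings. RPL9B (YNL067W) read 1414.2 and 1072.9 at 60 min in the reference, up from 810.1, 507.1 and 632.4, and 631.3 and 735.9 in the deletion strain, against 572.5, 642.2 and 604.8. Its interaction was -0.78 (SE 0.228, adjusted p = 0.0217), lost in 7 settings.

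RPL3 and RPL22B combined a low steady state with a response whose difference was not called. RPL3 differed by -1.53 at 120 min (SE 0.229, adjusted p = 6.67e-05), with 3125.3 and 2660.4 in the reference, and its interaction was -0.61 at 60 min (adjusted p = 0.146) and -0.48 at 120 min (adjusted p = 0.268). RPL22B differed by -1.65 at 120 min (SE 0.283, adjusted p = 0.000224), with 460.3 and 515.4 in the reference and 213.0 and 113.3 in the deletion strain. Its interaction was 0.09 at 60 min (adjusted p = 0.891) and -0.41 at 120 min (adjusted p = 0.465). RPP2A differed by -1.31 at 120 min (adjusted p = 0.00728), with 2861.9 and 3119.5 against 1152.7 and 1267.7. RPL5 read 5380.5 and 4630.3 against 2430.8 and 2541.5 at 120 min, a difference of -1.01 (SE 0.133, adjusted p = 2.16e-05). The members without a call at 120 min were RPL30 (-0.63, adjusted p = 0.0823) and RPL15B (0.12, adjusted p = 0.704). At 60 min RPL15B was the member called higher, by 0.57 (adjusted p = 0.0492), from unequal deletion arrays of 1225.6 and 639.3, the former being the array with the actin ratio of 0.247.

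The copies of some paralog pairs had close values and those of others did not. The difference of the 2 log2 values was within 0.3 for 10 of 18 pairs for the rise in the reference at 30 min, for 11 for the strain difference at steady state and for 12 for the strain difference at 120 min. The widest differences at 30 min in the reference were those of RPL15A/RPL15B, RPL13A/RPL13B and RPL7A/RPL7B. Such differences compare changes and not levels of 2 probe sets, and cross-hybridization between near-identical copies would make them too small. The A to B ratio of the 30 min arrays of the reference lay above that of all its steady-state arrays for 5 pairs and below it for 6, and 7 overlapped. Between the strains it lay above for 4 and below for 4 at steady state, and above for 6 and below for 5 at 120 min. No share over other pairs of genes was computed beside these counts, so they are not read as a divergence of the copies.

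**Figure D5:**
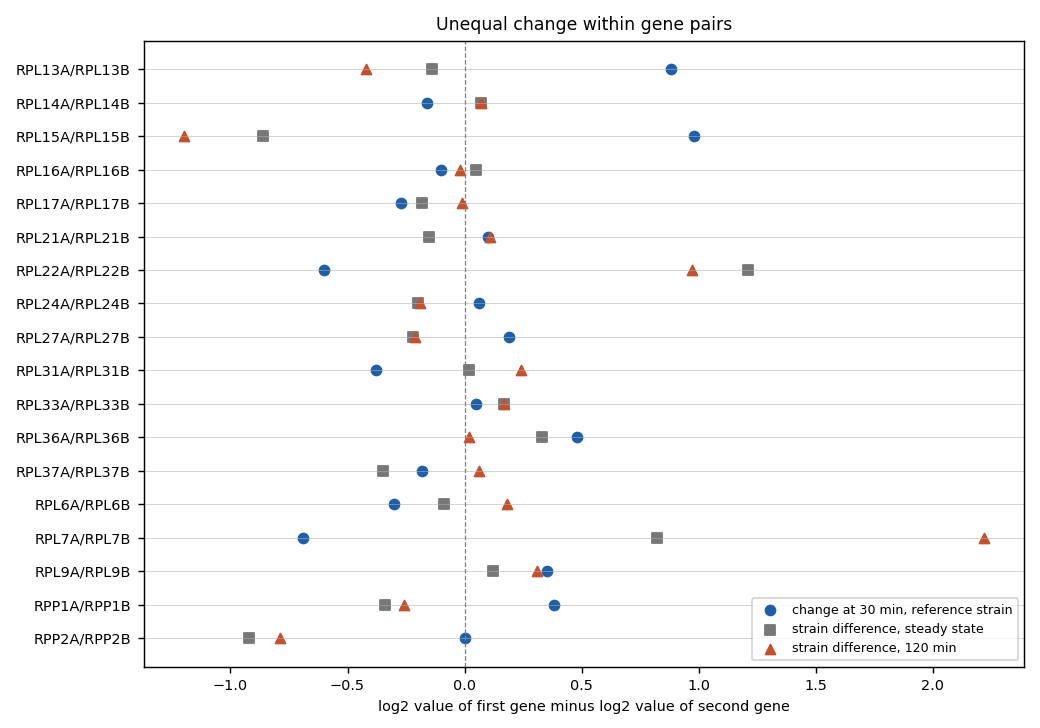
Difference between the A and the B copy of each of 18 paralog pairs in log2 change: the change of the reference at 30 min, and the strain difference at steady state and at 120 min. RPL7A/RPL7B reaches 2.22 in the strain difference at 120 min, and RPL15A/RPL15B is at 0.98 in the first and at -1.20 in the last.

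RPL15A and RPL15B, which encode nearly identical proteins, differed most at 30 min. RPL15A rose from 382.2, 441.1 and 371.8 to 867.7 and 946.3 at 30 min in the reference, by 1.19 (adjusted p = 2.19e-08), while RPL15B was not called. Relative to its steady-state mean, the A to B ratio stood at 0.90 and 1.06 on the 30 min arrays and at -1.02, -0.87 and -0.71 on the deletion steady-state arrays. RPL15A at steady state was called lower in the deletion strain, and RPL15B lay above the reference without a call, which gives a pair difference of -0.86. At 120 min RPL15A differed by -1.08 between strains (SE 0.119, adjusted p = 3.01e-06) and RPL15B by 0.12.

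RPL7A, the paralog of RPL7B, was not called between strains at steady state. It read 2266.2, 2436.9 and 2187.0 in the reference at steady state and 1563.8, 2264.6 and 2244.4 in the deletion strain, a difference of -0.20 (adjusted p = 0.364). It rose in the deletion strain to 2700.9 and 4141.2 at 60 min (0.74, adjusted p = 0.00173), where RPL7B was not called. The A to B ratio relative to the reference steady state was 0.75, 0.70 and 0.99 on the deletion steady-state arrays and 1.46 and 2.11 on the deletion 120 min arrays, and -0.44 and -0.94 on the reference 30 min arrays. The probe set shared by both genes gave a strain difference of 0.01 at steady state and -0.65 at 120 min, beside -0.20 and -0.81 for RPL7A and -1.02 and -3.03 for RPL7B.

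In the pair RPL22A/RPL22B the B copy had the larger rise at 30 min and the more negative strain difference at steady state. RPL22A read 2139.2, 2721.3 and 2244.3 at steady state and 4716.3 and 5521.0 at 30 min in the reference, a rise of 1.12 against the 1.72 of RPL22B. At steady state RPL22A differed by -0.03 between strains (adjusted p = 0.859) and RPL22B by -1.24, and the A to B ratio stood at 0.65, 1.35 and 1.62 on the deletion arrays. RPL13A and RPL13B parted in the reference, where RPL13B went from 1587.2, 1951.6 and 1469.8 to 3475.7 and 2966.7, by 0.95 (adjusted p = 2.02e-05) against the 1.84 of RPL13A. In the stalk, RPP2A and RPP2B rose by about the same at 30 min (0.88 and 0.87), while their strain differences at 120 min were -1.31 and -0.52 (adjusted p = 0.00728 and 0.00748).

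The medians by type of probe set and by number of gene copies were as follows. The 33 members on probe sets named by the manufacturer as specific had a median change of 0.93 at 30 min in the reference, with 32 called, and the 14 on probe sets named as shared with relatives or incomplete had 1.18, with all 14 called. Genes with a paralog had a median of 1.13 (31 of 32 called), single-copy genes of 0.96 (10 of 10) and stalk genes of 0.87 (5 of 5). For the strain difference at 120 min the medians were -0.75, -0.66 and -0.68. Called interactions at 120 min were 26 of 32, 4 of 10 and 3 of 5. Of the 8 members with more than 1 probe set of their own, RPP1B and RPL17B had probe sets that differed in sign at steady state. RPP1B was at 0.25 on the set used and -0.18 on the other, and RPL17B at 0.05 on the set used and -0.10 and -0.06 on the others.

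The 38 shared probe sets, which cover the 32 genes with none of their own as well as some members, gave a median of 1.02 in the reference at 30 min, from 0.29 to 1.70, and all were positive. Their strain difference had a median of -0.07 at steady state, with 15 positive and 23 negative, and of -0.68 at 120 min, from -3.75 to -0.32, all negative. The 3 sets of RPL11A/RPL11B, the partner of Rpl5 on the 5S rRNA, rose by 0.77 to 1.02 at 30 min.

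The other genes of ribosome synthesis are given from lists that were chosen with earlier results of these data known. All 33 small subunit genes with a probe set of their own were called higher in the reference at 30 min (median 1.08), 12 at 10 min and 33 at 120 min, against 22.6%, 15.2% and 19.0% of all genes. In the deletion strain 30 were called higher at 60 min, or 90.9% against 27.0% of all genes, and 7 at 120 min, or 21.2% against 19.9%, which is near the background. The interaction was called lower for 16 at 60 min and 20 at 120 min, against 5.27% and 4.34% of all genes, and 31 were called lower than in the reference at 120 min (7.86%). At steady state 3 were called higher and 2 lower, or 9.09% and 6.06%, both under the 18.4% and 8.14% of all genes.

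Of 11 listed chaperones and escorts of single large subunit proteins 9 were tested, and 7 were called higher at 10 min and 9 at 30 min in the reference, with a median of 1.61 at 30 min, where 15.2% and 22.6% of all genes were called higher. SYO1, the importer of Rpl5 and Rpl11, rose by 3.09 at 30 min (adjusted p = 3.18e-10), PUF6, an escort of Rpl43, by 2.76 (adjusted p = 3.46e-09), and RRB1, the chaperone of Rpl3, by 2.57 (adjusted p = 8.25e-12). SQT1, the chaperone of Rpl10, rose by 1.91 (adjusted p = 5.6e-05) and ACL4, that of Rpl4, by 1.61 (adjusted p = 2.22e-08). At steady state RRB1 was called lower in the deletion strain, as RPL3 was, by -0.89 (adjusted p = 6.92e-05), while LOC1, an escort of Rpl43 (0.78, adjusted p = 0.00372), and BCP1, the chaperone of Rpl23 (0.70, adjusted p = 0.00461) were called higher. In the deletion strain 8 of 9 were called higher at 60 min and 6 of 9 at 120 min, against 27.0% and 19.9% of all genes.

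Of 40 listed 60S assembly and export factors 38 were tested. In the reference 34 were called higher at 10 min (median 1.31), 38 at 30 min (median 2.26) and 26 at 120 min, against 15.2%, 22.6% and 19.0% of all genes. In the deletion strain 37 were called higher at 60 min and 20 by 120 min, against 27.0% and 19.9%. Between the strains at steady state 13 were called lower in the deletion strain and 1 higher, or 34.2% and 2.63% against 8.14% and 18.4% of all genes, with a median of -0.25. TIF6, which keeps the subunits apart, differed by -1.04 (adjusted p = 0.000983) and NOG1, a GTPase of assembly, by -0.61 (adjusted p = 0.000991). Of 20 listed regulators of ribosomal protein genes 18 were tested. In the reference at 30 min 6 were called higher and 9 lower, or 33.3% and 50.0% against 22.6% and 53.0% of all genes, with a median of -0.42. IFH1, the coactivator at these promoters, rose in the reference by 2.20 at 10 min (adjusted p = 5.28e-08) and 2.46 at 30 min (adjusted p = 1.54e-09) and stood at 0.26 at 120 min (adjusted p = 0.25), and CRF1, the corepressor that competes with it, fell by 2.45 at 30 min (adjusted p = 2.27e-07). FHL1 and RAP1 were not called at 30 min (0.31, adjusted p = 0.155, and 0.13, adjusted p = 0.424). At steady state 4 regulators, or 22.2%, were called lower in the deletion strain, among them SFP1 and IFH1 (-0.61, adjusted p = 0.0124), and 0 higher, against 8.14% and 18.4% of all genes.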

How the data were processed

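Total RNA of 26 samples was measured on Affymetrix yeast arrays. Signals were computed with GCOS, per the submitters' processing notes; the deposited values are linear signal intensities, with a trimmed mean (2% from each end) of 150.1 to 150.2 on every array. A genome build is not given in the sources used here. Of 9335 probe sets, 60 are controls, 6504 name 1 gene, 328 several and 2443 none in the platform annotation; symbols were updated through RefSeq, in which all 5656 genes matched. For the 315 genes with several probe sets, that with the highest mean log2 signal was kept. Signals under 12 were set to 12, log2 was taken, and 287 genes above 12 on fewer than 2 arrays were left out, leaving 5369. Group means were compared with limma 3.58.1 (R 4.3.3; lmFit, eBayes with trend), p-values adjusted by Benjamini-Hochberg within each comparison and called under 0.05, two-sided. The fit held 22 arrays (12 residual degrees of freedom, prior 4.66) or, for the combined 10 and 30 min comparisons, 26 (14 and 3.59). Replicates at a time point are independent cultures, per the labels, so p-values measure the spread between cultures, and the number of arrays limits the precision. The scripts were tested on simulated data. Members, lists, alternatives and tests were chosen with earlier results of these data known. Values on every array are given for stalk and selected single-copy genes, for those called at steady state, for the largest changes and interactions and for the pairs that differed most. Python 3.11.15 and matplotlib 3.10.9 were used for descriptions and plots. No sequences were used here, and 2 genes with matching symbols were not analysed here.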

Additional observations from a re-analysis of the deposited data

Results flagged for a closer look

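The 8 results flagged here are 2 counts of called members and the single genes picked as the most negative called interactions. The interaction was deletion minus reference on the log2 scale with limma, and the counts themselves were not tested. At 60 min 25 large subunit genes had a called smaller rise in the deletion strain, against 5.27% of all genes called lower. The most negative values were those of RPL7B (-1.85), RPL37B (-0.81, a call lost in 23 of 32 settings) and RPL9B (-0.78). At 120 min the number was 33, against 4.34% of all genes, and the genes were RPL7B (-2.01), RPL36A (-1.10) and RPL37B (-1.02). Under quantile normalization the numbers were 5 and 11, and with all 26 arrays no member was called at either time. RPL7B was called in the reference and not in the deletion strain at both times, with changes of 1.66 and -0.19 at 60 min and 1.58 and -0.43 at 120 min. RPL36A was called higher at 120 min in both strains, by 1.53 and 0.43, whereas RPL37B was called in the reference alone, at 1.01 against -0.00. Groups have 2 or 3 arrays, and single arrays far from the others of their group were not tested for.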

How the results depend on the processing

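The numbers of large subunit genes called were recomputed under 12 kinds of alternative and without each array in turn; 448 of these counts stayed within 1.5 times the value in the report and 74 did not. Single values were recomputed for a chosen part of the genes and comparisons given. Of these, 1273 kept their side of the threshold, 98 lost the call and 4 gained one. Among them a called value changed sign in 1 case, RPL10 in the reference at 30 min, at -0.12 (adjusted p = 0.287, limma) under quantile normalization. In other comparisons that scaling also reversed called members: 1 each in the reference at 60 and 120 min, and 3 in the deletion strain at 60 min. It reversed 2 in the combined 10 and 30 min arrays and 4 between the strains at 120 min. Values called in neither fit count as kept even where their sign changed, as for RPP1A, RPP2B, RPL22A and RPL25 at steady state. With a threshold of 0.01 the counts were 3 for the strains at steady state, 8 for the reference at 10 min, 2 for the deletion strain at 120 min, 4 for its 10 and 30 min arrays combined, and 6 and 19 for the interactions at 60 and 120 min. With all 26 arrays they were 2, 1 (reference 10 min), 15 and 0 (deletion 60 and 120 min), 0 and 0 (interactions), and 11 and 19 (strains at 60 and 120 min). With only the compared groups they were 3, 8, 0 (deletion 10 and 30 min), 10 (interaction 60 min) and 5 (strains at 60 min). Quantile normalization gave 11 at steady state, 29 and 30 for the reference at 30 and 120 min, 1, 21 and 3 for the deletion strain at 5, 60 and 10 with 30 min, 5 and 11 for the interactions, and 11 and 18 for the strains. A common median gave 4 and 38 for the reference at 5 and 10 min, 35 for the deletion 10 and 30 min arrays, and 38 and 2 for the interactions at 60 min and at 10 and 30 min. A floor of 48 gave 1 for the deletion strain at 5 min. Without the arrays labelled 10 and 30 min replicate 2 of the deletion strain the combined change had 32 calls and its interaction 15. With all 26 arrays and the array code prefix added to the model as a covariate, that interaction had 1.

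Leaving out the deletion arrays of low actin ratios, an alternative chosen after seeing the data, gave 1 for the reference at 5 min, 9 for the combined deletion arrays, 8 and 36 for the interactions at 60 min and at 10 and 30 min, and 21 for the strains at 60 min. Without single arrays the counts ran from 4 to 9 at steady state, 0 to 1, 8 to 22, 44 to 46, 44 to 47 and 43 to 46 for the reference at 5, 10, 30, 60 and 120 min, 0 to 1, 23 to 42, 3 to 17 and 4 to 34 for the deletion strain at 5, 60, 120 and 10 with 30 min, 0 to 0, 7 to 37, 18 to 37 and 0 to 12 for the interactions at 5, 60, 120 and 10 with 30 min, and 20 to 43 and 34 to 46 for the strains at 60 and 120 min. Whether the replicate numbers pair the samples across groups was not settled. Over 91 same-numbered pairs the correlation of deviations from group means ran from -0.25 to 0.36 (median 0.00), and over 126 other pairs from -0.36 to 0.33 (median -0.01). In a group of 2 arrays the deviations mirror each other, so these ranges are not independent and cannot decide it. With the replicate number as a block the counts were 1 for the reference at 5 min, 1 for the deletion strain at 5 min and 9 for its combined 10 and 30 min arrays, and the other counts moved by less than 1.5 times. Where a count moved, the cause was not tested, except that the strict threshold calls fewer genes by construction. The lowest signal of any member was 72.9 against a floor of 12, and each time point has 2 arrays per strain.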

Other observations

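One of the 3 probe sets shared by RPL8A and RPL8B gave other values than the remaining ones. It read 1710.5, 2155.0 and 1697.0 in the reference at steady state and 3462.2 and 2994.5 at 120 min, and in the deletion strain 713.4, 852.2 and 882.1 at steady state, 435.9 and 534.2 at 60 min and 220.9 and 259.7 at 120 min. Its changes in the deletion strain were thus -0.75 at 60 min and -1.76 at 120 min, where those of the other 2 sets were 0.83 to 0.99 and 0.57 to 0.58. Its strain difference was -1.18 at steady state and -3.75 at 120 min, the most negative of the 38 shared sets, against -0.73 and -0.46 at 120 min on the other sets. The sets were not tested, the probe set was singled out after its values were seen, and which of the copies each set reads is not given in the sources used here.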
